A study of Paralichthys olivaceus with 6 samples.

Results

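Among 52474 assembled transcripts (unigenes) of the Japanese flounder *Paralichthys olivaceus*, the 100 described here carry no gene symbol and had the highest ratio of fertile to sterile gonads. They were chosen by measured values. CPM, the counts of a unigene per 1000000 counts of its library, was computed from the column totals, and a unigene was kept when it has no symbol in the study's list of differentially expressed unigenes (or is absent from that list), when its fertile libraries averaged at least 0.5 CPM, and when its lowest fertile CPM was above its highest sterile CPM. Of the 32003 unigenes at that mean level, 6769 (21.2%) had no overlap in this direction, and 6608 of these have no symbol. The candidates were ranked by log2((mean fertile CPM + 0.1) / (mean sterile CPM + 0.1)), and the first 100 were taken. That every member is higher in fertile gonads therefore follows from the rule, and the levels of the 2 groups are a description with no test.

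Of the 100 members, 77 stand in the study's list without a symbol and 23 are outside it. The list was selected by the study on these same fish and gives a symbol to 611 of its 1225 unigenes. A unigene outside it may have a name that was not used here, so "unnamed" means only that no symbol was at hand. When named and unnamed unigenes were ranked together, the first 100 places held 41 of the members and 59 unigenes with a symbol, and the first place went to the member c18132_g1_i1_915_3667.

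The fertile group comprised 3 double haploid (DH) females, 5 years old, with ovaries at stage V, that gave eggs and viable progeny. The sterile group comprised 3 DH females of the same age with ovaries at stage III that could not produce eggs. All fish were made by mitogynogenesis from 1 wild female, so they are sisters that each carry a doubled single set of maternal chromosomes and are homozygous. Whole gonads were sequenced as 101-bp paired ends, 1 library per fish as taken here, although the methods also speak of pooled RNA. Fertility and ovarian stage cannot be told apart in these fish, and the spread between libraries is that between sisters. In whole gonads, fewer cells of a type and less RNA per cell cannot be told apart either.

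In a fish ovary, each oocyte grows inside a follicle whose cells make steroid hormones, answer signals from the pituitary and pass yolk precursors to the egg. Late stages hold large follicles near maturation, and early stages hold small oocytes in more supporting tissue. A unigene is what an assembler could join from short reads, and one without a symbol can be the untranslated end of a messenger RNA, a non-coding RNA, a retained intron or a coding sequence that matched nothing. Which of these a member is was not tested, and no function is given to any of them here.

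The libraries held 25816309 (F1), 29040459 (F2) and 28602740 (F3) counts in the fertile fish, and 25024469 (S1), 35719683 (S4) and 33849156 (S5) counts in the sterile fish. The count columns call the last 2 S4 and S5, numbers that belong to no sample title. Their column names end differently from those of the other 4, so they were taken as sterile by their letter alone. The study's clean reads rank its libraries in the same order as these totals. Its S2 and S3 take the places of S4 and S5 there. S4 and S5 are thus likely its S2 and S3, a match not used to assign the groups. Summed CPM of the leukocyte markers (9 of 9 symbols found) was 45.3 to 72.7 in fertile and 91.0 to 173 in sterile gonads, that of exocrine pancreas markers (4 of 4) was 0.654 to 1.78 in fertile and 2.96 to 11.9 in sterile gonads, and that of muscle markers (3 of 3) was 1.10 to 1.96 in fertile and 3.05 to 4.64 in sterile gonads. Steroid-making follicle cell markers (5 of 5) summed to 29.7 to 51.5 CPM in the fertile fish, against 9.52 to 14.9 CPM in the sterile fish, and the meiotic genes *spo11* and *sycp3* to 0.769 to 1.10 CPM in the fertile fish, against 0.236 to 0.280 CPM in the sterile fish. These symbols were taken from the study's list, which holds unigenes called different between the 2 groups in these same fish. That every symbol was found, and that the sums separate the groups, therefore follows from that choice. The sums are no independent measure of tissue composition, and oocyte genes outside the list could not be looked up. The part of tissue composition in the levels of the members was not tested.

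Most members were rare transcripts. Mean fertile levels ran between 0.51 and 18.0 CPM with a median of 1.16 CPM, and 46 members were below 1 CPM, 46 between 1 and 10 CPM and 8 above 10 CPM. Mean sterile levels ran between 0 and 5.56 CPM with a median of 0.315 CPM. The counts behind them were few, with a median of 98 counts over the 3 fertile libraries and 30 counts over the 3 sterile libraries, and 9 members had under 10 sterile counts in all. Together the 100 members summed to 280 CPM in F1, 394 CPM in F2 and 227 CPM in F3, against 69.7 CPM in S1, 63.6 CPM in S4 and 75.7 CPM in S5. The sums of the fertile fish differed by more than those of the sterile fish did, and F2 stood highest.

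**Figure D1:**
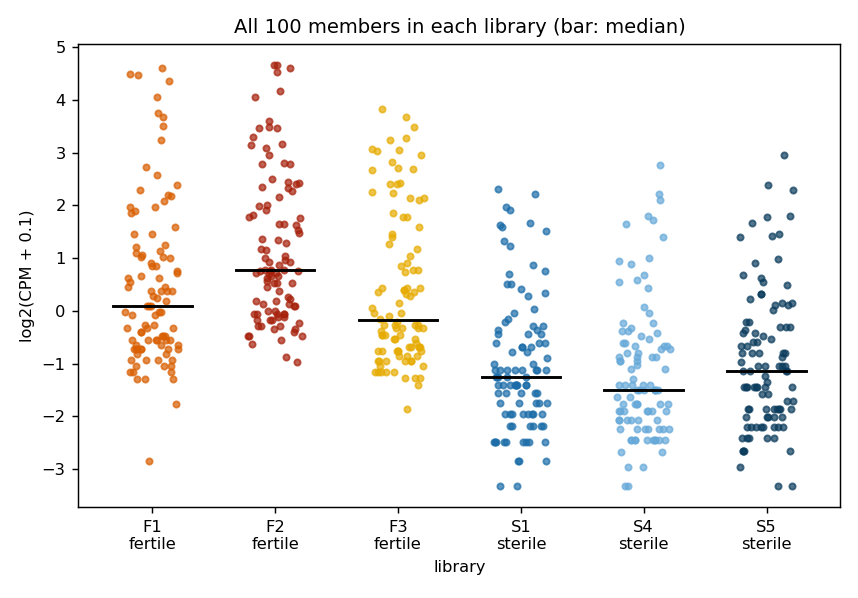
Level of each of the 100 members in each library as log2(CPM + 0.1), with a bar at the library median. The median was 0.968 CPM in F1, 1.62 CPM in F2 and 0.787 CPM in F3, and 0.320 CPM in S1, 0.252 CPM in S4 and 0.355 CPM in S5. The rule required each member to be higher in every fertile library than in every sterile one.

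The log2 ratio of the means ran between 1.12 and 5.14 with a median of 1.46, beside a median of 0.11 over all 32003 unigenes. It reached 2 in 26 members and 3 in 12. With TMM-normalized CPM, which allows for differences in composition between libraries, the median over all unigenes moved to 0.0016 and that of the members was 1.37. The share of unigenes with no overlap in this direction then fell to 11.6%, while 93 of the members still had none. Set against S1 alone the members' median log2 ratio was 1.54, and set against S4 and S5 it was 1.59. The rule compared the fertile fish with all 3 sterile fish, so neither value is independent of it, and with S1 as the only sterile library the rule kept 39 of the 100 members. In edgeR's quasi-likelihood test over 35787 unigenes, 29 (0.081%) were called higher in fertile gonads on 2 conditions, an adjusted p under 0.05 and over 2-fold. Of the members, 92 were tested and 6 were called, namely c18132_g1_i1_915_3667, Contig8985, c6158_g1_i2_632_4608, c15048_g4_i1_877_7289, c15970_g1_i1_1492_12182 and Contig9265. The rule chose on this same contrast, so that count says nothing further about the members, and it was 1 without S4, 2 without F2 or S1, 10 without F3 and 15 without F1.

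The first 3 members were also the most abundant. Counts of c18132_g1_i1_915_3667 were 578 in F1, 729 in F2 and 182 in F3, against 2 in S1, 16 in S4 and 24 in S5. It averaged 18.0 ± 10.1 CPM (SD, n = 3) in fertile fish, against 0.412 ± 0.316 CPM (SD, n = 3) in sterile fish, 43.5-fold higher in fertile gonads, and 68.0-fold higher when S5 was left out. At 915 bases it had the highest level per length of the members whose identifier carries a length, 19.6 CPM per kilobase.

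The second member, c18894_g1_i1_901_8432, had 570, 731 and 149 counts in F1, F2 and F3, against 2, 3 and 39 in S1, S4 and S5. The next, Contig9432, had 528, 703 and 133 counts in F1, F2 and F3, against 2, 9 and 49 in S1, S4 and S5. Their means were 17.5 ± 10.7 and 16.4 ± 10.4 CPM (SD, n = 3) in fertile fish, against 0.439 ± 0.618 and 0.593 ± 0.745 CPM (SD, n = 3) in sterile fish. S5 alone supplied most of their sterile counts, and without S5 the folds of the means moved to 213 for c18894_g1_i1_901_8432 and 99.1 for Contig9432, against 39.9 and 27.7 with all fish. In all 3 members F1 and F2 were close to each other and F3 was the low fertile fish, and the shares of the fertile CPM that fell to F1, F2 and F3 differed by at most 2.48 percentage points among the 3. No other member came within 5 points of their mean shares. All 3 were also lowest in S1 and highest in S5 among the sterile fish. Whether the 3 identifiers are pieces of 1 transcript was not tested.

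Contig8985 followed them, with 424, 350 and 150 counts in F1, F2 and F3, against 11, 25 and 39 in S1, S4 and S5. F3 was again the low fertile fish and S1 the low sterile fish, but here F1 was above F2. It averaged 11.2 ± 5.63 CPM (SD, n = 3) in fertile fish, against 0.764 ± 0.361 CPM (SD, n = 3) in sterile fish, a 14.7-fold difference. Contig7237 was far less abundant, with 35, 97 and 13 counts in F1, F2 and F3, against 2, 2 and 0 in S1, S4 and S5, and its fold of 37.9 rests on 4 sterile counts. It moved to 20.0 without F2, to 61.3 without S1 and to 25.3 without S5.

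**Figure D2:**
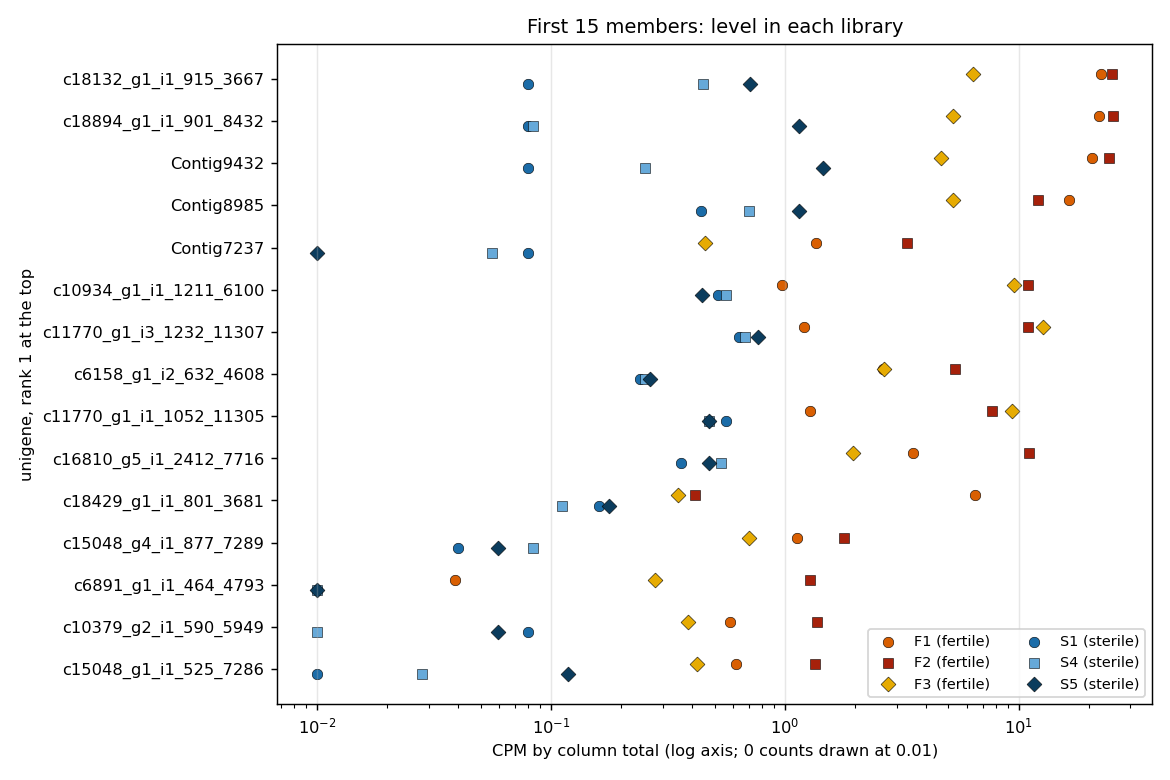
CPM of the first 15 members in each library on a logarithmic axis, with red and yellow markers for fertile fish, blue markers for sterile fish, and 0 counts drawn at 0.01. The first 4 members lie above 4 CPM in every fertile fish and at or below 1.45 CPM in every sterile fish, while in c18429_g1_i1_801_3681 only F1 lies far above the sterile fish.

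A different set of fish carried the members that came next. c10934_g1_i1_1211_6100 had 25, 317 and 273 counts in F1, F2 and F3, against 13, 20 and 15 in S1, S4 and S5. Here F1 held 4.52% of the fertile CPM, and its 0.968 CPM lay much nearer to the sterile fish (0.443 to 0.560 CPM) than to F2 (10.9 CPM) and F3 (9.54 CPM). The same shape was seen in c11770_g1_i3_1232_11307, with 31, 318 and 361 counts in F1, F2 and F3, against 16, 24 and 26 in S1, S4 and S5. Its isoform c11770_g1_i1_1052_11305 had 33, 223 and 267 counts in F1, F2 and F3, against 14, 17 and 16 in S1, S4 and S5. In these 3 members F1 was at least 6.01-fold below the next fertile fish, so they separate F2 and F3 from the other 4 fish more than they separate fertile from sterile. Without F1 their folds of the means were 20.2, 17.0 and 16.9, against 14.1, 11.9 and 12.1 with all fish.

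Isoforms of 1 assembled gene share sequence, and the sources used here do not say how a read matching several was counted, so the split of counts among them is uncertain. The other isoforms of c11770_g1 were not members. The isoform c11770_g1_i4_1316_11308 had 133, 499 and 557 counts in F1, F2 and F3, against 129, 228 and 191 in S1, S4 and S5, with F1 level with S1, the lowest sterile fish, at 5.15 CPM in each. The short c11770_g1_i2_229_11306 had 60, 120 and 115 counts in F1, F2 and F3, against 66, 111 and 81 in S1, S4 and S5. Likewise c10934_g1_i2_1295_6101 had 64, 452 and 506 counts in F1, F2 and F3, against 61, 93 and 88 in S1, S4 and S5. F1 thus lay within or just below the sterile range in these sister isoforms, and F2 and F3 were higher than F1 in each.

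The remaining members of the first 15 were mostly highest in F2. c6158_g1_i2_632_4608 had 68, 155 and 76 counts in F1, F2 and F3, against 6, 9 and 9 in S1, S4 and S5, or 3.54 ± 1.55 CPM (SD, n = 3) in fertile fish, against 0.253 ± 0.013 CPM (SD, n = 3) in sterile fish. Of the first 10 members its sterile fish were the most alike. c16810_g5_i1_2412_7716 had 91, 321 and 56 counts in F1, F2 and F3, against 9, 19 and 16 in S1, S4 and S5, and its fold of 12.1 dropped to 6.03 without F2. F2 was thus the high fish of both, by 2.01 times the next fish in the first and 3.14 times in the second.

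c18429_g1_i1_801_3681 differed from the rest of the first 15. It had 168 counts in F1 but 12 in F2 and 10 in F3, against 4, 4 and 6 in S1, S4 and S5. F1 held 89.5% of its fertile CPM, and its fold of 16.2 fell to 2.55 without F1. Its high value is that of 1 fish, and F2 and F3 lay a few counts above the sterile fish.

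c6891_g1_i1_464_4793 was the only member with no count in any sterile fish. It had 1, 37 and 8 counts in F1, F2 and F3, and F2 held 80.0% of its fertile CPM. With a floor of 3 counts over the sterile group it was at least 16.7-fold higher in fertile gonads, and at least 5.02-fold higher without F2. A single count in F1 set it apart from the sterile fish there, so no difference between F1 and the sterile fish was detectable at this depth. Of the other members, 3 had 0 counts in 1 sterile library and 96 were found in all 6 libraries.

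Other abundant members were high in both groups. Contig6274 had 343, 665 and 238 counts in F1, F2 and F3, against 113, 162 and 258 in S1, S4 and S5, or 14.8 ± 7.41 CPM (SD, n = 3) in fertile fish, against 5.56 ± 1.79 CPM (SD, n = 3) in sterile fish, the highest sterile mean of the members. Contig9079 had 240, 519 and 401 counts in F1, F2 and F3, against 95, 109 and 163 in S1, S4 and S5, or 13.7 ± 4.29 CPM (SD, n = 3) in fertile fish, against 3.89 ± 0.886 CPM (SD, n = 3) in sterile fish. Their folds of the means were 2.67 and 3.53. In Contig6274 the lowest fertile fish (F3, 8.32 CPM) was just above the highest sterile fish (S5, 7.62 CPM).

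The gap between the groups was narrow in 7 members, whose lowest fertile CPM was less than 10% above the highest sterile CPM. The narrowest was c4601_g1_i2_854_526, with 621, 107 and 132 counts in F1, F2 and F3, against 92, 120 and 114 in S1, S4 and S5. F2 (3.68 CPM) and S1 (3.68 CPM) were equal to 3 digits there, and its fold of 3.11 fell to 1.20 without F1. c17116_g4_i1_4654_3378, the longest member at 4654 bases, had 326, 198 and 200 counts in F1, F2 and F3, against 77, 238 and 60 in S1, S4 and S5. S4 (6.66 CPM) was near F2 (6.82 CPM) and F3 (6.99 CPM) in it, and without S4 its fold moved to 3.63, against 2.30 with all fish. In both, leaving out 1 fish moved the fold by over 1.5 times.

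A few members were even among the fertile fish. Contig5133 had 40, 47 and 46 counts in F1, F2 and F3, against 18, 13 and 23 in S1, S4 and S5, or 1.59 ± 0.037 CPM (SD, n = 3) in fertile fish, against 0.588 ± 0.195 CPM (SD, n = 3) in sterile fish. c11079_g1_i1_584_11054 had 13, 16 and 14 counts in F1, F2 and F3, against 4, 6 and 4 in S1, S4 and S5. Contig15953 had 22, 30 and 27 counts in F1, F2 and F3, against 2, 16 and 18 in S1, S4 and S5. Fertile fish differed by at most 1.21 times in these 3, and the folds of the means were 2.71, 3.46 and 2.67. In Contig15953 the sterile fish were not even, with S1 far below S4 and S5.

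Another 2 of edgeR's calls were members with a graded order of the fertile fish. c15970_g1_i1_1492_12182 had 133, 284 and 232 counts in F1, F2 and F3, against 29, 45 and 44 in S1, S4 and S5, a 6.20-fold difference of the means. Contig9265 had 54, 81 and 100 counts in F1, F2 and F3, against 14, 21 and 13 in S1, S4 and S5, a 5.47-fold difference of the means. In both, every fertile fish was at least 3 times as high as any sterile fish, and leaving out any fish kept the fold between 5.35 and 7.22 for the first and between 4.78 and 6.16 for the second.

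At the end of the ranking the values changed smoothly. The last members inside were Contig6493 (44, 88 and 45 counts in F1, F2 and F3, against 23, 27 and 36 in S1, S4 and S5) and c7600_g1_i1_218_5004 (15, 17 and 12 counts in the fertile fish, against 7, 5 and 5 in the sterile fish), both with a log2 ratio of 1.12. The first unigenes outside were c4871_g1_i1_259_4404 and c16409_g1_i1_358_7623, also at 1.12. Nothing separates the last members from the unigenes just below them, and the number 100 is a limit of the rule.

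The order of the fertile fish is not part of the rule, and F2 was the highest in 80 of the 100 members. F1 was the highest in 10 and F3 in 10. The most frequent orders were F2, F1, F3 in 43 members and F2, F3, F1 in 37. In some of these members F1 and F3 had equal counts, so only the library totals order them. Over all 32003 unigenes with at least 0.5 CPM, F1 was the highest in 34.8%, F2 in 30.9% and F3 in 34.4%. The members are not independent of each other and were ranked by a mean that a single high fish raises, so no test is given and these shares are a description. The median share of the fertile CPM was 25.8% for F1, 46.9% for F2 and 25.5% for F3, and F2 held over 50% in 37 members, F1 in 5 and F3 in 3.

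The share of unigenes highest in F2 declined along the ranking. It was 80%, 80%, 76% and 84% in successive groups of 25 members, 68% at ranks 101 to 200, 58% at ranks 901 to 1000, 43.0% at ranks 2001 to 4000 and 35.1% in the last 2608 candidates. Unigenes with a symbol showed the same lean, since F2 was highest in 45 of the 59 (76.3%) in the joint first 100 and in 109 of all 161 (67.7%) that passed the same conditions. F2 was the most frequent leader for each choice of sterile libraries, and its share changed with them. When the members were chosen again without S1, S4 or S5, the share highest in F2 was 68%, 54% and 70%, and with S1 as the sole sterile library it was 53%.

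**Figure D3:**
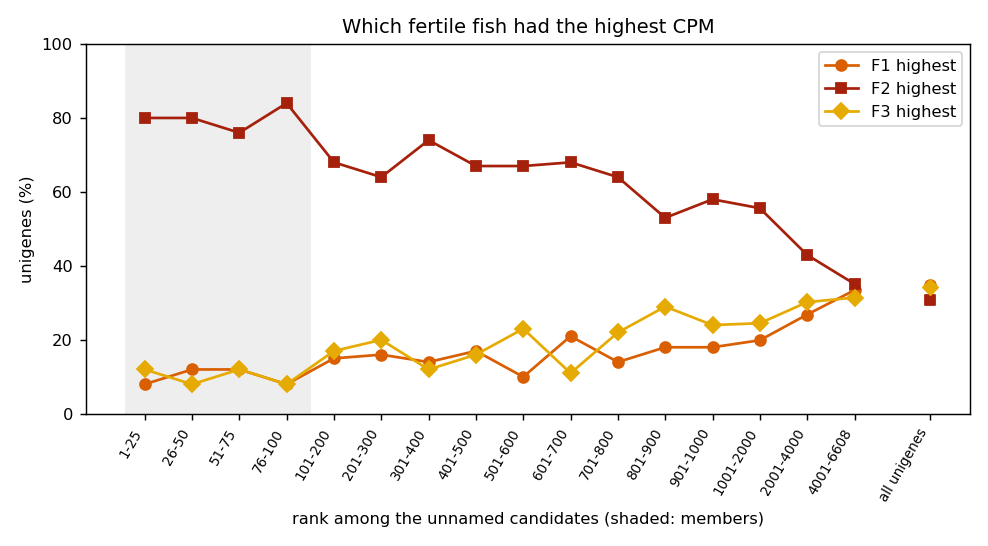
Percentage of unigenes in which F1, F2 or F3 had the highest CPM, by rank among the 6608 unnamed candidates, with the 100 members shaded and all 32003 unigenes at the right. F2 leads in 76% to 84% of each group of 25 members, and the 3 fish come together at 31.4% to 35.1% in the last ranks.

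How far the fertile fish stood apart was sorted into shapes. In 33 members 1 fish was at least 2 times the next (F2 in 27, F1 in 5, F3 in 1), and in 12 the fish next above the lowest was at least 2 times as high as the lowest (F1 the low fish in 7, F3 in 5). Another 13 were even, with the highest under 1.5 times the lowest, and the other 42 were graded. Over all unigenes the shares were 1.55% with 1 fish high, 1.77% with 1 fish low, 80.8% even and 15.9% graded. The median ratio of the highest to the lowest fertile fish was 2.27 in the members and 1.20 over all unigenes. The 2 sets were not matched for level, and many members had few counts. The ranking by the fertile mean also favours a unigene with a high fish, so these values are a description. Among the 23 members outside the study's list, 19 had 1 fish high, against 14 of the 77 in it. The study chose its list by a test between the groups in these same fish, so neither count is independent of that choice.

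The differences between fertile fish were often larger than counting error. A pair of fertile libraries differed more than 2-fold at an adjusted p under 0.05 in an exact two-sided binomial test of the counts in 51 of the 100 members, against 1512 of 32003 unigenes (4.72%). This test compares single libraries and not conditions, and because the ranking uses the fertile mean, a member with 1 very high fish ranks higher, so the 2 shares are not independent of the rule. Between sterile libraries, whose levels the rule used as well, 11 members differed in the same test, against 1923 of 32003 unigenes (6.01%). In the first 4 members it was S1 that was lowest. Contig8990 had 93, 255 and 124 counts in F1, F2 and F3, against 69, 5 and 113 in S1, S4 and S5. S4 (0.140 CPM) thus lacked most of a transcript that S1 (2.76 CPM) and S5 (3.34 CPM) carried. Those 2 were not far below F1 (3.60 CPM), the lowest fertile fish, but well below F2 (8.78 CPM). Contig10642 had 151, 145 and 180 counts in F1, F2 and F3, against 73, 20 and 19 in S1, S4 and S5, and here S1 was the high sterile fish. Contig24915 had 123, 151 and 220 counts in F1, F2 and F3, against 31, 150 and 34 in S1, S4 and S5, and its fold of 2.74 moved to 5.25 without S4. Contig8990 and Contig10642 were picked out for this paragraph after their values were seen. The highest sterile fish was S1 in 37 members, S4 in 22 and S5 in 41, beside 48.1%, 30.7% and 21.2% over all unigenes. A tie was given to the first fish, so the 37 include c6891_g1_i1_464_4793, which had 0 counts in every sterile fish.

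Members highest in 1 fish were found for each fertile fish. For F2, c15605_g2_i1_363_7443 had 11, 55 and 12 counts in F1, F2 and F3, against 7, 1 and 9 in S1, S4 and S5, and its fold of 4.78 fell to 2.21 without F2. For F3, Contig11032 had 107, 96 and 319 counts in F1, F2 and F3, against 60, 91 and 104 in S1, S4 and S5. F3 was 2.69 times the next fish in Contig11032, the only member in which F3 stood so far out, and its fold of 2.32 fell to 1.39 without F3. c8658_g4_i1_453_5290, with 11, 29 and 5 counts in F1, F2 and F3, against 4, 5 and 2 in S1, S4 and S5, also fell, to 2.51 without F2, against 4.46 with all fish.

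Named genes of the ovary were set beside this pattern to show where the members resemble it, each by the unigene of that symbol with the most counts. *Cyp11a1*, the enzyme that cuts the side chain of cholesterol at the start of steroid synthesis, has 5 unigenes with its symbol, and the one with the most counts, c15635_g1_i2_1925_7450, had 70, 138 and 50 counts in F1, F2 and F3, against 5, 4 and 1 in S1, S4 and S5. The prolactin receptor gene *prlr* has 2, and its c8874_g2_i1_1473_1538 had 49, 115 and 17 counts in F1, F2 and F3, against 0, 2 and 4 in S1, S4 and S5. Both followed the order F2, F1, F3, which 43 members share. *Akr1d1*, a steroid 5-beta-reductase, had 21, 117 and 40 counts in F1, F2 and F3, against 2, 6 and 5 in S1, S4 and S5, in the order of 37 members. F2 was the highest fertile fish in the chosen unigene of 8 of the 9 genes looked at, and the follicle-stimulating hormone receptor gene *fshr* was the other one, highest in F3 with 112, 182 and 266 counts in F1, F2 and F3, against 88, 67 and 98 in S1, S4 and S5. The genes were selected by the study on these fish, an order of 3 fish has few possibilities, and no correlation was computed over so few fish. Sharing an order gives no role to a member.

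**Figure D4:**
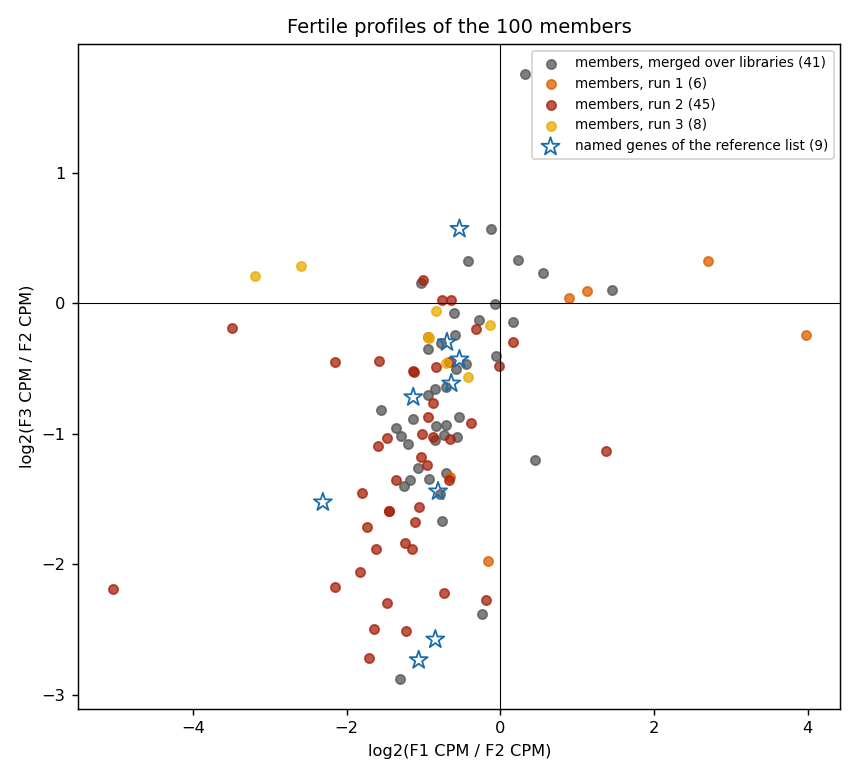
Fertile profile of the 100 members, as log2(F1 CPM / F2 CPM) across and log2(F3 CPM / F2 CPM) upward, coloured by how the unigene was assembled, with the unigenes of 9 named ovary genes as stars. Points below and to the left of the lines are highest in F2, as in 80 members and 8 of the named genes.

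The identifiers show how the members were assembled. Unigenes named Contig were taken as those that CAP3 merged when the study clustered its assemblies. Whether each joins several assemblies was not tested. They made up 41 of the members, against 80.4% of all unigenes with at least 0.5 CPM and 81.5% of the candidates below rank 100. The other 59 carry a component number, a length and a running number. Along the running number the component number starts anew 5 times, which gives 6 runs, and the unigenes of runs 1 to 6 were most often highest in F1, F2, F3, S1, S4 and S5, in that order of runs, in 44.0% to 55.8% of each. The sources used here do not say which library each run came from. Run 2 supplied 45 members, run 1 supplied 6, run 3 supplied 8, and runs 4 to 6 supplied none.

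F2 led among merged members too. It was the highest in 32 of 41 merged members (78.0%), in 40 of 45 from run 2 (88.9%), in 6 of 8 from run 3 and in 2 of 6 from run 1. Over all unigenes with at least 0.5 CPM, F2 was the highest in 31.1% of the merged ones and 52.1% of those from run 2. Leaving out run 2, a choice made after seeing the data, F2 was the highest in 72.7% of the other 55 members. F2 led in both sets, but the 41 merged members are most of these 55, so the 2 shares overlap. In run 1 the most frequent leader was F1, in 4 of 6 members.

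**Figure D5:**
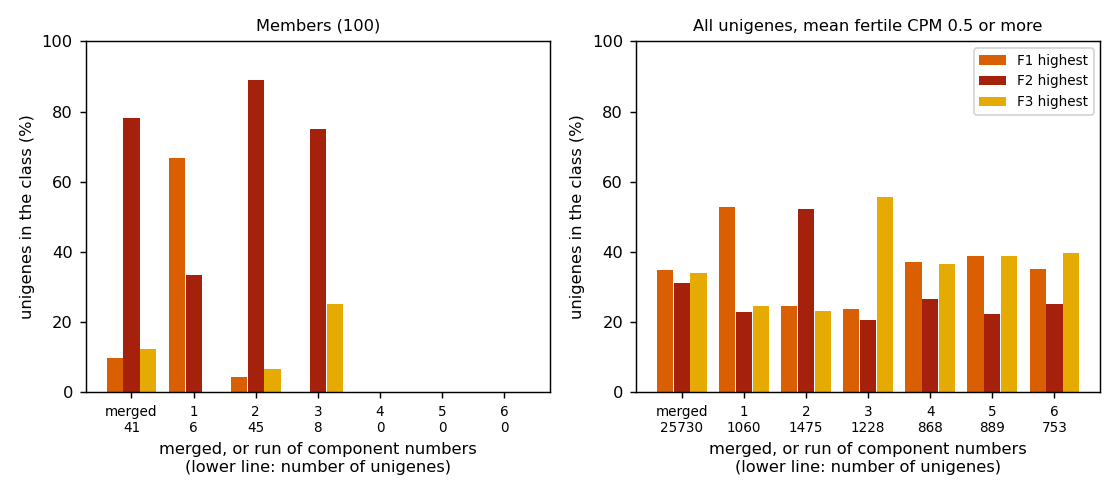
Percentage of unigenes in which F1, F2 or F3 had the highest CPM, for merged unigenes and each run of component numbers, in the 100 members (left) and in all unigenes with at least 0.5 CPM (right), with the number of unigenes under each class. F2 leads in merged members (78.0%), and no member came from runs 4 to 6.

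The members with a length were shorter, by median, than the candidates below rank 100. Their lengths ran between 204 and 4654 bases with a median of 580 bases, and 9 of 59 (15.3%) reached 1000 bases. The 1207 candidates below rank 100 with a length had a median of 2190 bases and 72.3% of them reached 1000 bases. Over all unigenes with at least 0.5 CPM the median was 1664 bases, while over all unigenes at any level it was 266 bases. The members were not matched to any of these sets for level. Fertile levels per length ran between 0.881 and 19.6 CPM per kilobase, with a median of 1.51 CPM per kilobase.

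Several members belong to components that hold other unigenes, where a component is a cluster of reads from which Trinity may assemble several genes (the g number), each with 1 or more isoforms (the i number). This was so for 28 of the 59, with 47 partners that are not members. In 4 components there were 2 members. Component c15048 of run 2 held c15048_g4_i1_877_7289, with 29, 52 and 20 counts in F1, F2 and F3, against 1, 3 and 2 in S1, S4 and S5, and c15048_g1_i1_525_7286, with 16, 39 and 12 counts in F1, F2 and F3, against 0, 1 and 4 in S1, S4 and S5. Another piece, c15048_g2_i1_262_7287, was below the minimum level, with 9, 19 and 5 counts in F1, F2 and F3, against 0, 0 and 1 in S1, S4 and S5. These 3 had the order F2, F1, F3, and none had more than 4 counts in a sterile fish. The other pieces of the component were c15048_g3_i1_288_7288, with 11, 11 and 4 counts in F1, F2 and F3, against 0 in every sterile fish, and c15048_g5_i1_373_7290, with 4, 24 and 0 counts in F1, F2 and F3, against 1, 0 and 1 in S1, S4 and S5. F1 was highest in the first of these by CPM, and in the other F3 was below S1 and S5. The folds of the means of the 2 members were 19.7 and 16.3, and that of c15048_g1_i1_525_7286 moved to 56.7 without S5, which held 4 of its 5 sterile counts, and to 10.7 without F2.

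Component c16810 of run 2 held c16810_g5_i1_2412_7716 and the member c16810_g2_i1_1333_7715, which had 38, 71 and 15 counts in F1, F2 and F3, against 8, 3 and 10 in S1, S4 and S5. Both were highest in F2 and lowest among the fertile fish in F3. c10379_g2_i1_590_5949 had 15, 40 and 11 counts in F1, F2 and F3, against 2, 0 and 2 in S1, S4 and S5, with the same order of the fertile fish. Its fold of 16.9 rests on 4 sterile counts and moved to 10.4 without F2 and to 26.4 without S1.

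For 7 members a partner in the same component has a symbol, and 4 of these partners are described here. *gmpr*, which encodes GMP reductase, had 8, 16 and 8 counts in F1, F2 and F3, against 2, 3 and 6 in S1, S4 and S5. Its member c8658_g4_i1_453_5290 was highest in F2 too. By CPM both have the order F2, F1, F3, but in *gmpr* F1 and F3 had equal counts, so only the library totals order them. *ppp1r1c*, an inhibitor of protein phosphatase 1, had 26, 54 and 35 counts in F1, F2 and F3, against 6, 4 and 8 in S1, S4 and S5, while the member c15816_g1_i2_538_7502 had 11, 24 and 10 counts in F1, F2 and F3, against 6, 2 and 4 in S1, S4 and S5. Both of these were highest in F2. They are isoforms of 1 assembled gene, so the split of counts between them is uncertain. By CPM they differed in which fish came last, but in the member F1 and F3 were close, with 11 and 10 counts. *filip1b* had 26, 17 and 13 counts in F1, F2 and F3, against 6, 4 and 8 in S1, S4 and S5, and the member c10494_g5_i1_720_1957 had 37, 19 and 20 counts in F1, F2 and F3, against 6, 9 and 16 in S1, S4 and S5, both highest in F1. A partner of c17116_g4_i1_4654_3378, named *unc80* after a subunit of a sodium leak channel, went the other way, with 11, 7 and 17 counts in F1, F2 and F3, against 24, 40 and 35 in S1, S4 and S5. This partner is 1 of several isoforms of c17116_g3. The isoform with the most counts, c17116_g3_i3_3985_3374, had 509, 597 and 582 counts in F1, F2 and F3, against 424, 736 and 496 in S1, S4 and S5. Its groups overlapped, with a fold of the means of 1.16. The split of counts among isoforms is uncertain, so no direction is given to c17116_g3 as a whole. No symbol was carried over to a member.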

How the data were processed

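The authors assembled the reads of 6 libraries with Trinity, merged contigs with CAP3, mapped reads to the unigenes with BWA and deposited the raw counts of each unigene, with no normalization. The submitters' notes give BWA as version 0.7.8-r455 and name HTSeq, where the methods say Picard did the counting. Neither the use of strand nor the handling of reads that match several unigenes is stated in the sources used here. Gene symbols came from the study's list of 1225 unigenes. The reference gene table matched 0 of the 52474 identifiers, and no sequence of a unigene was used here. All 6 count columns were used (0 left out). The columns of S4 and S5 count as sterile by their letter, and only the order of read depth ties them to the study's S2 and S3.

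CPM was the count over the column total. Folds are ratios of mean CPM, fertile over sterile, and log2 ratios have a pseudocount of 0.1 added to both means, which understates the change of low unigenes. The fold against a group at 0 used 3 counts over the group. It covers counting error only. The number of counts sets the precision, from 43 to 1489 counts per member over the fertile libraries. No pair of libraries was a duplicate. Differential expression used edgeR 4.0.16 in R 4.3.3 (TMM, filterByExpr, glmQLFit and glmQLFTest, Benjamini-Hochberg over all tested unigenes). Pairs of libraries of 1 group were compared by an exact binomial test (scipy 1.17.1), adjusted over all pairs and unigenes. Both tests were tried on simulated data with 200 changed unigenes.

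The members and lists were chosen with earlier results of these data known. Members are named if among the first 15, the 5 with the highest mean fertile CPM or level per kilobase, called by edgeR, the 2 in which a fish most exceeds the next, the 3 most even, the last 2 inside and first 2 outside the ranking, or the 2 with the narrowest gap between the groups. The gap was taken both as a ratio and as a difference in CPM, and the difference added c8658_g4_i1_453_5290. Contig8990, Contig10642, c16810_g2_i1_1333_7715, c15816_g1_i2_538_7502 and c10494_g5_i1_720_1957 were named after their values were seen. Some named partners are not reported here.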

Additional observations from a re-analysis of the deposited data

How the results depend on the processing

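No paired analysis was possible, because each library was taken as 1 fish and the sources used here pair no fertile fish with a sterile one. S4 and S5 carry the number of no sample title and are matched to the study's S2 and S3 by read depth alone. Of the 100 members, the rule kept 91 with TMM-normalized CPM. Restricted to listed unigenes, the rule kept the 77 members that are listed, an outcome fixed in advance. It kept 59 and 44 with pseudocounts of 0.5 and 1, 54 with a mean fertile CPM of at least 1, 53 with no minimum, 51 (without F2) to 67 (without F3) with a fish left out, and 39 with S1 as the only sterile library, an alternative chosen after seeing the data. The median log2 ratio was 1.24 to 1.63 with a fish left out and 0.69 with a pseudocount of 1. The share of members highest in F2 was 82% with TMM. Among choices made after seeing the data, it was 79.6% without the first 3 members and with 1 member per component. It was 54% to 70% when members were chosen again without a sterile fish and 53% with S1 alone, also choices made after seeing the data. The 49 calls of edgeR became 79 with no filter, 324 with DESeq2, 24 with limma-voom and 34 to 97 with a fish left out. Calls among members were 11 with no filter, 3 with at least 10 counts in every library, 41 with DESeq2, 2 with limma-voom and 1 (without S4) to 15 (without F1), against 6. The cause of these changes was not tested. With a fold above 1.5 between fertile libraries, 2891 unigenes and 61 members differed by counting. Of 300 recomputed ratios of named members, 251 moved by less than the spread between the fertile fish of that member and 49 moved further. A member carried by 1 fertile fish thus has a wide tolerance, and the 251 are no measure of robustness. They include the log2 ratio of c4601_g1_i2_854_526, 1.61 with all fish and 0.252 without F1. The 49 include that of Contig5133, even among the fertile fish, which was 1.30 and became 1.20 with TMM. The rule fixes the sign of the recomputed ratios. Few counts per member limit these values.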
